A study of Mus musculus with 6 samples.

Results

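The Hippo pathway genes described here were the 10 rows of a gene expression table whose symbol was Nf2, Sav1, Stk3, Stk4, Lats1, Lats2, Yap1, Wwtr1, Tead1 or Tead2, out of 22544 rows. They were chosen by name, for their roles in the pathway, with earlier results of these data known. Expression had been measured by RNA sequencing in upper-layer cortical neurons of Swiss Webster mice that carried GFP and were isolated by fluorescence-activated sorting, at postnatal days 3 (P3) and 5 (P5). Each age had 3 biological replicates. No treatment other than age separated the groups, and neither the way GFP was introduced nor the number of animals in a replicate is stated by any source used here. The table holds 1 value per gene and age, which the authors' Cuffdiff run pooled over the replicates, in FPKM (fragments scaled to transcript length and library total), a unit that is scaled to length and so allows levels to be set side by side between genes. No value per replicate was used, the depth of the libraries is unknown, and the spread between replicates enters only through the deposited test. The series title is about neurons becoming post-mitotic by degrees, and the comparison here asks whether transcripts of a pathway that limits tissue growth differed between the ages.

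The Hippo pathway is a kinase cascade that restrains growth. The kinases MST1 and MST2 (genes Stk4 and Stk3), with the scaffold Salvador (Sav1), activate the kinases LATS1 and LATS2, a step that the membrane-linked tumour suppressor Merlin (Nf2) promotes. LATS kinases phosphorylate the co-activators YAP (Yap1) and TAZ (Wwtr1), which keeps them out of the nucleus, where they would otherwise bind the DNA-binding TEAD factors and switch on growth genes. In the developing cortex YAP, TAZ and TEAD factors are known from neural progenitors, astroglia and vessels, and YAP protein is low in most neurons. The cascade acts mainly through phosphorylation, which RNA levels do not show.

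RNA of all 10 genes was detected at low to moderate levels at both ages, and the authors' test called none of them as different between P3 and P5. Each had an FPKM of at least 1.07, the value of Sav1 at P5, and the highest value was 12.3 FPKM, for Tead2 at P3. The median tested gene had 4.90 FPKM at P3 against 5.59 at P5, so the members lay on both sides of it. In the deposited table of the authors all 10 were tested and 0 were called at q = 0.05, as were 0 of all 12865 tested rows (0%), and the lowest q of the whole table was 0.999988. None of the 10 members (0) had an unadjusted p under 0.05, beside 99 of the 12865 rows (0.770%). FPKM was lower at P5 in 7 of the 10 and higher in 3, where 44.4% were lower among the 12313 tested rows whose FPKM exceeded 0 at each age. All 10 of the 95% intervals of the log2 ratio, P5 over P3, included 0. The ratio reached 1 log2 unit in either direction in 1 of the 10, Tead2, beside 33.9% of those rows.

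**Figure D1:**
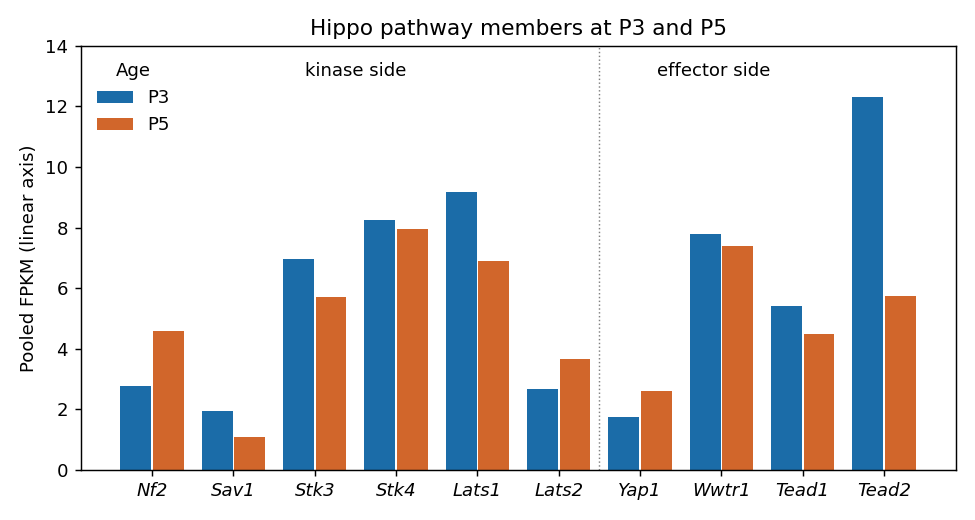
Pooled FPKM of each Hippo pathway gene at P3 (blue) and P5 (orange) on a linear axis, with the kinase side to the left of the dotted line and the effector side to the right. There is 1 pooled value per age and so no error bar. Tead2 has the tallest bar, 12.3 FPKM at P3, and Sav1 the shortest, 1.07 FPKM at P5.

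On the kinase side, Stk4 and Lats1 had the most RNA. Stk4, which encodes MST1 (mm9 chromosome 2, 163899914 to 163981257), had 8.26 FPKM at P3 against 7.95 at P5. Its log2 ratio was -0.06 with a standard error (SE) of 0.96 and a 95% interval of -1.93 to 1.82. This SE was the lowest of the 10, and the interval still held changes from 0.262 times to 3.54 times the P3 level. Stk3, which encodes the close relative MST2 (chromosome 15, 34805254 to 35085561), was at 6.97 and 5.70 FPKM, with a log2 ratio of -0.29 (SE 1.25). Stk4 thus had 1.18 times the FPKM of Stk3 at P3 and 1.39 times at P5. The 2 log2 ratios differed by 0.24 (95% interval -2.85 to 3.33), well within their errors.

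The scaffold gene Sav1 gave the least certain value. It had 1.93 FPKM at P3 against 1.07 at P5. The log2 ratio of -0.85 had an SE of 4.86, and its 95% interval ran from -10.36 to 8.67. This SE was larger than that of 96.7% of the tested rows above 0 FPKM at each age. The table places Sav1 at a locus of 240 kb (chromosome 12, 70847835 to 71087989) that it shares with 7 other rows, whereas the loci of the other 9 members overlapped no other row. Whether the shared locus bears on the value of Sav1 was not tested. Without it, 6 of the other 9 members had lower FPKM at P5. Nf2, which encodes Merlin (chromosome 11, 4665851 to 4749530), was at 2.78 and 4.57 FPKM, with a log2 ratio of 0.72 (SE 1.25), the highest of the 10.

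The LATS kinases, which act directly on YAP and TAZ, were unequal in level. Lats1 (chromosome 10, 7401007 to 7436259) had 9.16 FPKM at P3 against 6.88 at P5, for a log2 ratio of -0.41 (SE 1.03). Lats2 (chromosome 14, 58308499 to 58364960), itself a known target of YAP, was at 2.65 and 3.66 FPKM, a log2 ratio of 0.46 (SE 1.34). Lats1 had 3.45 times the FPKM of Lats2 at P3 and 1.88 times at P5. The signs of the 2 ratios were opposite, but their difference of -0.88 had an SE of 1.70 and a 95% interval of -4.20 to 2.45, so a shift from Lats1 towards Lats2 was not detectable. Added up, the pair had 11.8 FPKM at P3 against 10.5 at P5, for a log2 ratio of -0.17 (SE 0.83).

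On the effector side, RNA of the co-activators was mostly from Wwtr1. Wwtr1, which encodes TAZ (chromosome 3, 57259566 to 57379832), had 7.77 FPKM at P3 against 7.40 at P5, for a log2 ratio of -0.07 (SE 1.25). Yap1 (chromosome 9, 7932001 to 8004596) was at 1.74 and 2.61 FPKM, a log2 ratio of 0.58 (SE 2.16), and was the lowest of the 10 at P3. Wwtr1 had 4.46 times the FPKM of Yap1 at P3 and 2.84 times at P5. Only 29.0% of tested rows had less FPKM than Yap1 at P3, against 61.2% for Wwtr1. The change of Wwtr1 minus that of Yap1 was -0.65 log2 units (95% interval -5.55 to 4.24).

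Tead2 had both the highest level of the 10 at P3 and the furthest ratio from 0. This TEAD factor, known from neural progenitors (chromosome 7, 52471123 to 52488989), had 12.3 FPKM at P3 against 5.74 at P5. The log2 ratio was -1.10 (SE 1.18, 95% interval -3.41 to 1.20), which is 2.15 times less at P5, and in the authors' deposited table its unadjusted Cuffdiff p of 0.349 was the lowest of the 10, with q = 0.999988. Of the 12313 tested rows above 0 FPKM at each age, 8.47% had a lower ratio. Tead1 (chromosome 7, 119822834 to 120050319) was at 5.39 and 4.48 FPKM, a log2 ratio of -0.27 (SE 1.19). Tead2 thus had 2.29 times the FPKM of Tead1 at P3 and 1.28 times at P5, but the difference of their changes, -0.84 (95% interval -4.11 to 2.44), did not exceed its error.

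**Figure D2:**
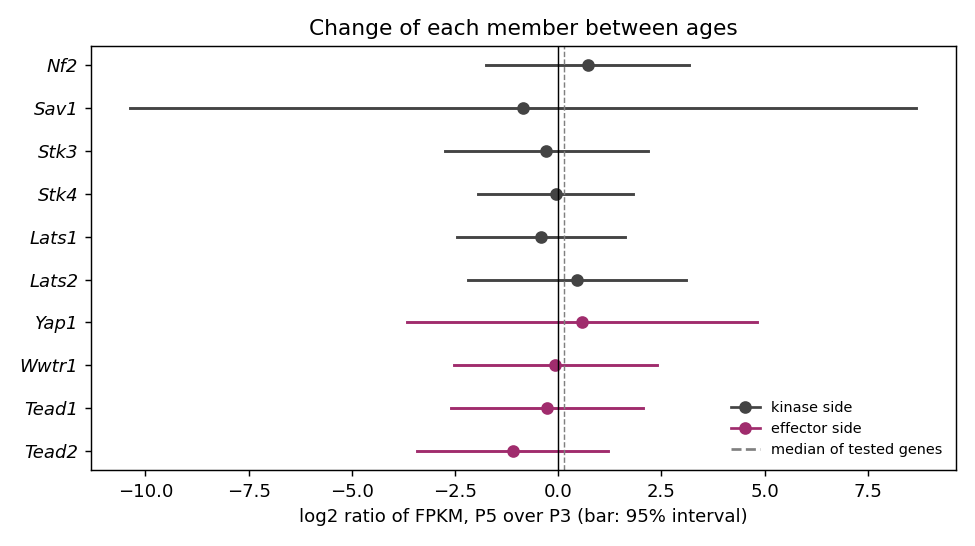
Log2 ratio of FPKM, P5 over P3, of each member (point) with its 95% interval (bar), taken from the deposited test statistic. Dark points are the kinase side and purple points the effector side, and the dashed line marks the median of the tested genes, 0.13. That median is over tested genes above 0 FPKM at each age. All 10 bars cross 0, from the narrowest for Stk4 to the bar of Sav1, which runs from -10.36 to 8.67.

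The order of the 10 genes by level differed between the ages, and only Stk3 and Lats2 kept their place. At P3 it ran Tead2, Lats1, Stk4, Wwtr1, Stk3, Tead1, Nf2, Lats2, Sav1 and Yap1. At P5 Stk4 came first, followed by Wwtr1, Lats1, Tead2, Stk3, Nf2, Tead1, Lats2, Yap1 and Sav1. A pooled value carries no error within 1 age, so it cannot be said which neighbours in these orders differ beyond their spread. Tead2, Stk4, Lats1 and Wwtr1 were the upper 4 and Lats2, Sav1 and Yap1 the lowest 3 at both ages.

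Set against each other, the kinase side and the effector side had summed FPKM of similar size. The 6 kinase-side genes summed to 31.8 FPKM at P3 against 29.8 at P5, for a log2 ratio of -0.09 (SE 0.55), and the 4 effector genes to 27.2 and 20.2, a log2 ratio of -0.43 (SE 0.68). Effectors over the kinase side was thus 0.858 at P3 and 0.679 at P5. The log2 change of this quotient was -0.34, with a 95% interval of -2.05 to 1.37, so no shift between the sides was detectable. Per gene the picture was not the same, since the sides hold unequal numbers of genes. The geometric mean of the effectors was 1.24 times that of the kinase side at P3 and 1.12 times at P5. Median FPKM was 4.88 for the kinase side and 6.58 for effectors at P3, and 5.13 and 5.11 at P5. The kinase side includes Sav1 and Nf2, which do not encode kinases. Both lay below its median at each age (Sav1 1.93 and 1.07 FPKM, Nf2 2.78 and 4.57). Stk3, Stk4 and Lats1 lay above the effector median at each age, and Lats2 lay below it. Without Sav1 and Nf2 the kinase-side median was therefore higher than the effector median at both ages. These comparisons of the sides thus do not describe the kinases alone. Stk3 and Stk4 summed to 15.2 and 13.6 FPKM, and Lats1 and Lats2 to 11.8 and 10.5. The sum of Tead1 and Tead2 was 17.7 FPKM at P3 against 10.2 at P5, beside 9.52 and 10.01 for Yap1 and Wwtr1. TEAD over co-activator FPKM was therefore 1.86 at P3 against 1.02 at P5, for a log2 change of -0.87 (95% interval -3.58 to 1.85). Most of the difference in summed TEAD FPKM lay in Tead2. Errors of sums treat the genes as independent.

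The median log2 ratio was -0.17 for the kinase side and -0.17 for the effector side. It was 0.13 for the 12313 tested rows above 0 FPKM at each age. Relative to that 0.13, the members' ratios ran from -1.23 for Tead2 to 0.59 for Nf2, again with 7 lower and 3 higher. Among the 5389 of those rows with a mean FPKM in the range of the members, the quartiles of the ratio were -0.47 and 0.98. Of the 10 members, 8 lay between them. Sav1 and Tead2 lay below the lower one.

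The rest of the pathway was read from 8 lists of genes with roles around the core, 93 distinct genes in all, of which 92 were in the table and 73 had been tested. Of these 73, the authors' deposited table called 0 and 1 had an unadjusted Cuffdiff p under 0.05, while 38 were higher and 35 lower at P5, with a median log2 ratio of 0.03. All values that follow are pooled FPKM at P3 and then at P5.

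MOB1 proteins are co-activators of LATS kinases, and the NDR kinases Stk38 and Stk38l are relatives of LATS that MOB1 also binds. In this list 0 of 4 tested genes were called, 1 was higher and 3 were lower at P5. Stk38l was at 75.8 and 56.1 FPKM and Stk38 at 17.0 and 12.1, both above every LATS or MST gene at each age. Mobkl1a (now Mob1b) was at 3.83 and 1.65 FPKM and Mobkl1b (now Mob1a) at 0.306 and 1.07.

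Upstream kinases, scaffolds and RASSF proteins were called in 0 of 16 tested genes, with 8 higher and 8 lower at P5 and a median log2 ratio of 0.22, and Rassf6 was listed at 0 at both ages. Taok1, a kinase that can activate MST kinases, was the most abundant at 73.7 and 68.4 FPKM. The MAP4K kinases phosphorylate LATS in parallel to MST. Map4k4 was at 20.7 and 8.98 FPKM, Map4k3 at 20.4 and 6.45, and their relative Tnik at 14.2 and 13.9. Map4k3 had a log2 ratio of -1.66 (SE 0.95) and, in the authors' deposited table, the lowest Cuffdiff p of the list, 0.0799, and Map4k4 followed with -1.21 (SE 0.85) and p = 0.157, both with q = 0.999988.

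The STRIPAK complex holds the phosphatase that switches MST kinases off. Of its 9 tested genes 0 were called, 5 were higher and 4 lower at P5, and the median log2 ratio was 0.57. The phosphatase subunits Ppp2ca and Ppp2r1a were at 75.9 and 67.3 FPKM and at 38.2 and 65.6. Mobkl3 (now Mob4) was at 20.8 and 42.4 FPKM (log2 ratio 1.03, SE 0.89) and Sike1 at 5.29 and 12.6 (1.25, SE 1.19).

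The giant cadherins FAT and Dachsous signal between neighbouring cells. Among these genes and Fjx1, the relative of a fly kinase that modifies them, 0 of 5 tested were called, 4 were lower and 1 was higher, with a median log2 ratio of -0.54. Fat4 was at 4.55 and 3.02 FPKM, Fat1 at 4.11 and 2.45 and Fjx1 at 14.4 and 17.1. Fat2 was listed at 0 at both ages. The lower ratios of Fat1 and Fat4, -0.75 (SE 0.96) and -0.59 (SE 0.90), were smaller than their SE.

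Angiomotins and junction proteins, which hold YAP and TAZ at the membrane or bind LATS, were called in 0 of 12 tested genes, with 5 higher and 7 lower. Their median log2 ratio was -0.19 and their mean 0.13, so the sign depended on the summary. The catenin gene Ctnna1 was at 37.5 and 47.0 FPKM, the polarity gene Mpp5 at 7.01 and 8.74 and its partner Inadl (now Patj) at 4.94 and 2.03. Crb3 was listed at 0 at P3 and was at 0.0843 at P5.

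The 14-3-3 proteins bind phosphorylated YAP and TAZ in the cytoplasm, and casein kinases with the ubiquitin ligase subunits Btrc and Fbxw11 mark them for breakdown. None of 10 tested genes of this list was called (0 of 10), 5 were higher and 5 lower, and the median log2 ratio was -0.08, with a mean of 0.01. The 14-3-3 genes Ywhae, at 1828 and 1599 FPKM, and Ywhaz, at 1568 and 1055, were the most abundant of all the pathway genes, and Ywhab followed at 106 and 108. Csnk1d was at 16.0 and 8.94 FPKM and Btrc at 4.30 and 6.79. The gene Sfn, whose 14-3-3 protein is typical of epithelia, was listed at 0 at both ages.

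Of the remaining TEAD factors and the VGLL cofactors that compete with YAP and TAZ for TEAD, only Vgll4 was tested (1 of 6). It was at 5.97 and 29.9 FPKM, a log2 ratio of 2.33 (SE 1.53, 95% interval -0.68 to 5.33), and was not called (Cuffdiff p = 0.129 and q = 0.999988 in the authors' deposited table). Vgll4 encodes a repressor of TEAD. Tead3 was at 0.351 and 0.0966 FPKM, Vgll3 was listed at 0 at P3 and was at 0.450 at P5, and Tead4, Vgll1 and Vgll2 were listed at 0 at both ages. Tead1 and Tead2 thus accounted for nearly all TEAD family FPKM.

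Target genes give a readout of YAP, TAZ and TEAD in many tissues. Of 19 tested targets 0 were called, 13 were higher and 6 lower at P5. The median log2 ratio was 0.25, beside 0.13 for all tested rows above 0 FPKM at each age. Cyr61 (now Ccn1), a matrix protein gene often used as a YAP reporter, was at 19.7 and 21.7 FPKM, a log2 ratio of 0.14 (SE 1.11). Ccdc80 was at 73.6 and 89.5 FPKM and Birc5, which mitotic cells also express, at 15.6 and 19.6. Foxf2, a transcription factor gene of mural cells, was the 1 gene of these lists with an unadjusted Cuffdiff p under 0.05 in the authors' deposited table (p = 0.0349, q = 0.999988). It was at 0.00532 and 1.26 FPKM, so its log2 ratio of 7.89 (SE 3.74) rests on a value near 0 at P3. Arhgef17 was at 1.89 and 0.985 FPKM. Chosen after their values were seen, the reporter genes Ctgf (now Ccn2) and Amotl2 were at 1.002 and 2.60 and at 6.47 and 4.61 FPKM, and Ankrd1 was listed at 0 at both ages. Areg and Nuak2 were listed at 0 at P3 and were at 0.296 and 0.221 at P5.

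**Figure D3:**
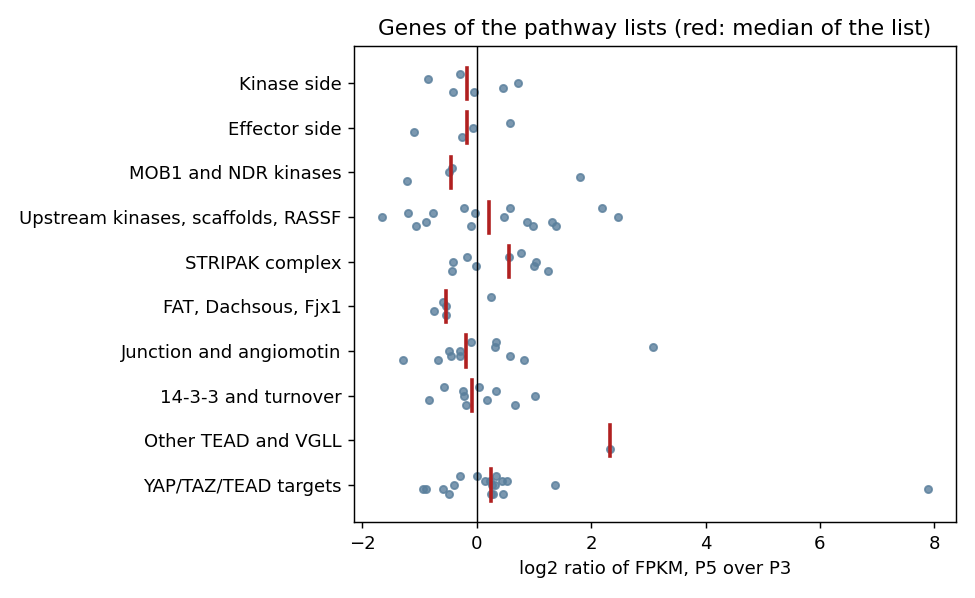
Log2 ratio of FPKM, P5 over P3, of each tested gene (point, shifted up or down only to keep points apart) in the kinase and effector sides and the 8 further pathway lists, with the median of each list as a red line. Medians lie between -0.54 (FAT, Dachsous and Fjx1) and 0.57 (STRIPAK), apart from Vgll4 alone at 2.33, and the point near 8 is Foxf2.

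TEAD factors bind the core letters GGAATG, which read CATTCC on the other strand. RefSeq promoter windows (build GRCm38.p6, from 250 bases before a transcription start to 50 after it) were held for 8 of the 10 members and 18 of the 26 targets and were searched on both strands. A match was found for 4 members, in 5 of 11 windows, and for 8 targets, in 8 of 20 windows (40.0%), beside 14.7% of all 32851 windows. Lats2 counts in both sets, and the windows of Wwtr1 with a match start 34 bases apart and hold the same site. A match describes letters only. The sites of the 4 members, with that of Cyr61 as the reporter gene with the highest FPKM of those with a match, are printed on the strand of the gene with the match in capitals, to show which genes of the cascade carry the letters that its last factors bind.
Wwtr1, chr3:57576029-57576058, minus strand: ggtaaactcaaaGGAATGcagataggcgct
Yap1, chr9:8004720-8004749, minus strand: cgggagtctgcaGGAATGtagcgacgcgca
Sav1, chr12:69987091-69987120, minus strand: cggctttcccagCATTCCcagcggcgcggg
Lats2, chr14:57746102-57746131, minus strand: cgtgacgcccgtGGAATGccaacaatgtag
Cyr61 (Ccn1), chr3:145650071-145650100, minus strand: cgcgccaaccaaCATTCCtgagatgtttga

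Of the 5 genes whose sites are shown, Yap1, Lats2 and Cyr61 had higher FPKM at P5 and Wwtr1 and Sav1 lower, and the ratio of none exceeded its error. Tead2 and Nf2, the members with the lowest and the highest ratio, had windows without a match.

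Markers of the labelled cells and of others were read in the same table. Upper-layer neuron markers were present, 14 of 14 above 0 at both ages, with a summed FPKM of 593 at P3 and 586 at P5. The most abundant were Mef2c (156 and 226 FPKM) and Rorb (119 and 152). Neuron markers of any layer summed to 2045 and 2757 FPKM over 12 genes, with Gap43 at 1243 and 1474 and Stmn2 at 332 and 758. Interneuron markers summed to 701 and 830 over 11, with Sp8 at 445 and 310 and Npy at 155 and 356. Sp8 and Npy made up most of that sum, and the median interneuron marker was at 9.29 and 8.73 FPKM.

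Glial markers were abundant in these sorts at both ages. Radial glia markers summed to 5944 FPKM at P3 and 4715 at P5 over 16 genes, 11 of them lower at P5, led by Fabp7 (5388 and 4272) and Notch2 (181 and 99.9). Fabp7 alone made up most of that sum. The median radial glia marker was at 14.4 and 12.1 FPKM, below the upper-layer neuron median of 27.4 and 20.7. Astrocyte markers summed to 2952 and 3823 over 16 genes, 14 of them higher at P5, with Slc1a3 at 1088 and 758 and Aldoc at 767 and 773. In both lists 0 of 16 genes were at 0 at either age. These are cell types in which YAP, TAZ and TEAD factors are known, so the levels of the effector genes cannot be assigned to neurons from this table. In pooled cells, fewer cells of a type and less RNA per cell cannot be told apart.

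Most markers of vessels, fibroblasts, oligodendrocytes and microglia had higher FPKM at P5. Endothelial and mural markers summed to 916 and 960 FPKM over 15 genes, of which Rgs5 alone was at 911 and 905 and Vtn at 1.40 and 25.1, with 13 of 15 higher at P5, and Acta2 and Tek were at 0 at P3. Fibroblast markers summed to 32.7 and 93.3 over 10 genes, 10 of them higher, with Pdgfra at 21.4 and 43.6 and Dcn at 2.45 and 19.4. Pdgfra is in the oligodendrocyte list too, and without it the fibroblast sum was 11.3 and 49.7. Oligodendrocyte markers summed to 152 and 335 (13 of 13 higher), with Olig1 at 48.1 and 50.9, and 2 of them, Gm98 (now Myrf) and Mog, were at 0 at P3. Microglia markers summed to 20.8 and 169 (14 of 14 higher), with Fcer1g at 0.488 and 30.4 and C1qb at 9.69 and 27.5, and Itgam was at 0 at P3. In the 9 marker lists 0 of 114 distinct tested genes were called by the authors' test, and 7 (6.14%) had an unadjusted p under 0.05, beside 0.770% of all tested rows. These 7 were in the astrocyte (2), oligodendrocyte (1), microglia (2) and endothelial and mural (2) lists. The lists were chosen with earlier results of these data known, so the larger share is not independent evidence. Some of the 7 rest on a P3 value near 0, such as Fcer1g at 0.488 FPKM, and others do not. Nf2, Lats2 and Yap1, the members with higher FPKM at P5, shared that direction with most genes of the vascular, fibroblast, oligodendrocyte, microglia and astrocyte lists, and also with 9 of 12 neuron markers of any layer and 7 of 11 interneuron markers. Lower FPKM at P5 was found in 7 of 14 upper-layer and 11 of 16 radial glia markers. The part of any of these cells in a member's ratio was not tested.

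**Figure D4:**
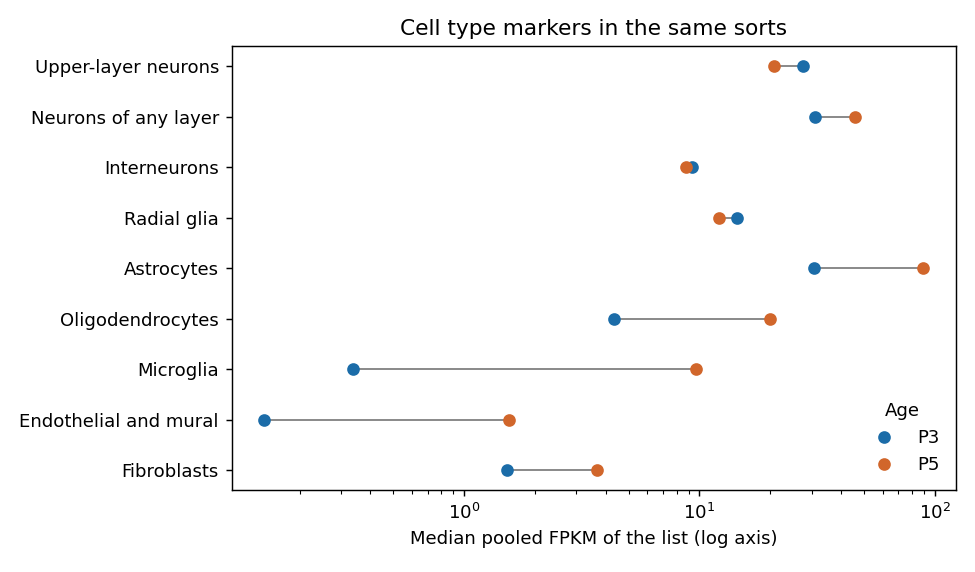
Median pooled FPKM of each cell type marker list at P3 (blue) and P5 (orange) on a log axis, joined by a line. Astrocyte markers have medians of 30.7 and 88.7 FPKM and radial glia markers 14.4 and 12.1, beside 27.4 and 20.7 for upper-layer neurons, and microglia markers go from 0.338 to 9.69.

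The errors set what could be seen. For Stk4, the best measured of the 10, a change would have had to exceed about 1.96 times its SE of 0.96 log2 units before its own interval left 0, and every other member had an SE of at least 1.03. Across the 12313 rows the deposited test statistic had a robust spread of 0.66, where a standard normal has 1, so these SEs may be too wide. The absence of a call among the Hippo genes therefore does not show that their levels were equal at P3 and P5.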

How the data were processed

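RNA sequencing of sorted upper-layer cortical neurons gave 6 samples, 3 per age, and sample titles supplied the groups. TopHat, Cuffdiff 2.02 and build mm9 are named in the submitters' processing notes, without role or order; annotation, strandedness and read numbers are not stated there. The authors deposited 1 table with a pooled FPKM per age and, per gene, a log2 ratio and a test statistic (handled as scores, since both hold a placeholder where 1 age is at 0), a p-value and a q-value, per the file headers. The number of per-sample columns left aside was 0.

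Calls were taken from the authors' Cuffdiff test at q = 0.05 in the 12865 rows with status OK, adjusted over all of them. In the 12313 whose FPKM exceeded 0 at each age, a two-sided normal p computed from the statistic matched the deposited p-value to within 2.8e-06. The SE of a log2 ratio was therefore its size over that of the statistic, and 95% intervals span 1.96 SE either side. Errors of sums and differences of genes assume independence. Deposited starts (mm9), taken as 0-based, are printed 1-based. Steps were run in Python 3.11.15 with pandas 2.3.3 and tested on simulated data.

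Members and lists were chosen with earlier results of these data known. Named genes are all members, the 3 genes of highest mean FPKM and the 2 of lowest p in each pathway list, and the 2 of highest FPKM in each marker list, of which some are not reported here. Also named, after their values were seen, are 2 reporter genes (Ctgf and Amotl2) and the pathway and marker genes listed at 0 at 1 or both ages. None was sought for likeness of pattern, which 2 pooled values cannot measure. Alternatives were stricter and looser thresholds, pseudocounts of 1 and 0.1 FPKM, a minimum of 1 FPKM, centring, means, geometric means and leaving out genes.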

Additional observations from a re-analysis of the deposited data

How the results depend on the processing

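No paired analysis was possible because the table holds 1 pooled value per age, although both ages share replicate numbers. For the same reason leaving out replicates was not run. At q = 0.01 and with Bonferroni adjustment 0 rows and 0 members were called, which was fixed in advance because 0 rows passed q = 0.05. With a minimum of 1 FPKM, 0 rows and 0 members were called too. An unadjusted Cuffdiff p under 0.05 gave 99 rows and 0 members, and a log2 ratio of at least 1 without a test gave 4172 rows and 1 member. Each member kept the sign of its ratio after centring. Pseudocounts of 1 and 0.1 FPKM shrink a ratio but cannot change its sign, so they give no check of direction. As means, the junction list was at 0.13 and the 14-3-3 and turnover list at 0.014, opposite in sign to their medians. With rows that were not tested, the median of the other TEAD and VGLL genes was 0.23 in place of 2.33. By geometric means, effectors over the kinase side was 1.24 in place of 0.858 at P3 and 1.12 in place of 0.679 at P5. The larger side thus changed at both ages, although the P3 value stayed within the limit set and is not counted as moved. Without Sav1, left out after the data were seen, 6 members were lower at P5. The quotient of sums at P5 was then 0.704 and the median ratio of the kinase side -0.06. Also left out after the data were seen, Pdgfra lowered the fibroblast sums to 11.3 and 49.7 FPKM. In all, 101 of the recomputed values moved by less than the errors or limits set, 7 moved by more and 2 changed sign; a list median was held to have moved past the median SE of its members, and counts, sums and quotients past 1.5 times. The 101 include settings that could not move a value, among them the stricter calls. Depth is unknown, and SEs of about 1 log2 unit limit what any member can show.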
